A study of Homo sapiens with 8 samples.

Results

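The complement components described here are 10 genes that code for circulating and locally made proteins of the complement cascade: C1QA, C1QB, C1QC, C1R, C1S, C2, C3, CFB, CFD and CFP. They were chosen by symbol, and each matched 1 Ensembl identifier among the 78899 genes of the count table. Total RNA was sequenced in bulk from GFP-labelled human microglia after fluorescence-activated cell sorting 2 weeks after plating. The labels conflict on the origin of the cells: titles and tissue call them derived from induced pluripotent stem cells, while the cell line is given as H1, an established embryonic stem cell line. Tri-culture microglia (4 libraries) were kept with no exogenous cytokine, and mono-culture microglia (4 libraries) received IL-34 at 100 ng/mL and M-CSF at 10 ng/mL. Medium or cytokine was renewed on the same weekly schedule in both. The same line is given for all samples, and neither the promoter of the GFP label nor the other cells of the tri-culture are named in the labels. The cytokines and the culture format differ together, so their parts cannot be told apart. Each of the 4 batches gave 1 library of each group.

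Complement is a cascade of serum proteins, also made by microglia and other brain cells, that tags particles for uptake and can open pores in membranes. In the classical pathway, C1q carries the proteases C1r and C1s and binds a target. C1s then cuts C4 and C2, and the resulting convertase cuts C3. In the alternative pathway, factor D (CFD) cuts factor B (CFB) bound to C3b, and properdin (CFP) stabilises the convertase so formed. In the developing brain, mouse work has tied C1q and C3 to the removal of synapses by microglia.

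The genes lie in several clusters (GENCODE 29, GRCh38). C1QA (22636506 to 22639608), C1QC (22643630 to 22648110) and C1QB (22652762 to 22661538) follow each other on the forward strand of chromosome 1, with 4021 and 4651 bases between them. C1S (6988259 to 7071032, forward) and C1R (7080199 to 7092607, reverse) are neighbours on chromosome 12, 9166 bases apart. C2 (31897785 to 31945672) and CFB (31945650 to 31952084) lie on the forward strand of chromosome 6 and overlap by 23 bases. CFD (859643 to 863630, forward) and C3 (6677704 to 6730562, reverse) are both on chromosome 19, and CFP is on chromosome X (47623172 to 47630305, reverse).

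RefSeq promoter windows of 300 bases (250 before and 50 after the start, GRCh38.p14) were present for 7 members: C1QA, C1QB, C1R, C2, CFB, CFD and CFP. Those of C1QB, CFD and C2 are shown because these are the members with a called difference that have a window. The lone capital base is the start site and the run of capitals in each C2 window is a match to CACGTG, the palindromic E-box. The sequences are written 5′ to 3′ on the gene's strand.
C1QB, chr1:22652986-22653285, forward: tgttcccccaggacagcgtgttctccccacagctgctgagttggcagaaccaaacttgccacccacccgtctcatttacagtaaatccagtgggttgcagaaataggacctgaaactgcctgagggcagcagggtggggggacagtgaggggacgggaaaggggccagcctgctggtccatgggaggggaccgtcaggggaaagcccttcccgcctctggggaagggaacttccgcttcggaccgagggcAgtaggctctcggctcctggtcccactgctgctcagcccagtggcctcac
CFD, chr19:859414-859713, forward: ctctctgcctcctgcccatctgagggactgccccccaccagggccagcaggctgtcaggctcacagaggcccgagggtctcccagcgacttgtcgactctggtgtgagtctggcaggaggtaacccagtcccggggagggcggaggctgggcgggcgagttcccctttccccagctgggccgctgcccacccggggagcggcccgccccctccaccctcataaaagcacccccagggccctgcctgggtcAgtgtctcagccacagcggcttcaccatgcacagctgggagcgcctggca
C2, chr6:31897533-31897832, forward: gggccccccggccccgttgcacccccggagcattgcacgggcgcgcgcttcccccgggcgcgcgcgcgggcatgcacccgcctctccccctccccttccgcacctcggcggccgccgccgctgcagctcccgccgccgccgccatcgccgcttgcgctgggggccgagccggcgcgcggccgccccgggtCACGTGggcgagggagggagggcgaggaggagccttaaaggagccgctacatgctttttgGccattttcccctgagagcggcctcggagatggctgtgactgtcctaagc
C2, chr6:31900749-31901048, forward: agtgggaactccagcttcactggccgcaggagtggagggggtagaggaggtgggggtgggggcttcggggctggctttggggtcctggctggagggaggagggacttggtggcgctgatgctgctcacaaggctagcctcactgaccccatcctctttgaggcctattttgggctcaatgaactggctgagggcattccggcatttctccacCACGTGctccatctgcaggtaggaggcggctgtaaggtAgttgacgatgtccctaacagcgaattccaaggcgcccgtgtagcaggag
The motifs searched, on both strands and without any overlap between them, were TATAAA (in 11.5% of 35116 RefSeq windows), CCAAT (34.6%), CACGTG (7.26%) and GAGGAA (27.9%). CCAAT and CACGTG were added after the windows had been read, in place of an NF-kB and an interferon-response motif that had been searched before and whose matches are not reported here. Each C2 window held CACGTG once, beginning at -60 and at -38 relative to its start. The C1QB and CFD windows held none of these 4 motifs. The window of CFB, the neighbour of C2, held TATAAA at -30, 1 window of CFP held GAGGAA at -207, -20 and -3, and 1 window of C1R held it at -78. C1QA windows held CCAAT at -206 and 34, and at -132. These windows overlap, and the matches at 34 and at -132 are the same bases. A match describes these letters and is not a binding site, and the lack of one says only that these letters are not in the window.

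Library totals were 17602010 to 24491765 counts in tri-culture and 17037481 to 33363972 in mono-culture, and 16249 genes passed the filter on low counts. Levels below are in CPM, that is, counts relative to a library size scaled by the trimmed mean of M-values (TMM), and differences are log2 of tri-culture over mono-culture with an approximate standard error (SE). The test was edgeR's quasi-likelihood test, with Benjamini-Hochberg adjustment over all tested genes and a threshold of 0.05. The microglial identity of both groups was checked with 10 markers, all detected in both. SPI1, the transcription factor PU.1, had 486 ± 50.9 CPM in tri-culture and 485 ± 49.6 CPM in mono-culture (SD, n = 4 each), and PTPRC, the leukocyte antigen CD45, had 632 ± 61.9 CPM in tri-culture and 620.1 ± 46.8 CPM in mono-culture. Of the 10, 3 were higher in tri-culture: CX3CR1 (833 ± 214 CPM in tri-culture against 120.2 ± 30.7 CPM in mono-culture), P2RY12 (71.6 ± 17.6 CPM in tri-culture against 23.2 ± 6.96 CPM in mono-culture) and TREM2 (457 ± 98.5 CPM in tri-culture against 227 ± 43.6 CPM in mono-culture). ITGAM was lower, with 61.3 ± 33.4 CPM in tri-culture and 173 ± 32.3 CPM in mono-culture. CD68 was near the detection limit in both, with 0.335 ± 0.176 CPM in tri-culture and 0.618 ± 0.196 CPM in mono-culture. In a bulk sample, fewer cells of a type and less RNA per cell cannot be told apart.

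Of the 10 members, 8 passed the filter and 5 of those were called different. C1QB, C1QC, C3 and CFD were higher in tri-culture, C2 was lower, C1QA, CFB and CFP did not pass the test, and C1R and C1S fell below the filter. For comparison, 26.9% of all tested genes were called (13.9% higher, 13% lower). The median log2 difference of the 8 tested members was 0.53, against 0.02 over all tested genes. All 8 reached the minimum of 0.464 CPM (before TMM scaling) in libraries of both groups. The filter asks for this minimum in as many libraries as a group holds. CFP reached it in 4 tri-culture and 3 mono-culture libraries, so tri-culture, where its mean was higher, met the filter alone and mono-culture did not. CFB reached it in 2 libraries of each group, and the other tested members in every library.

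**Figure D1:**
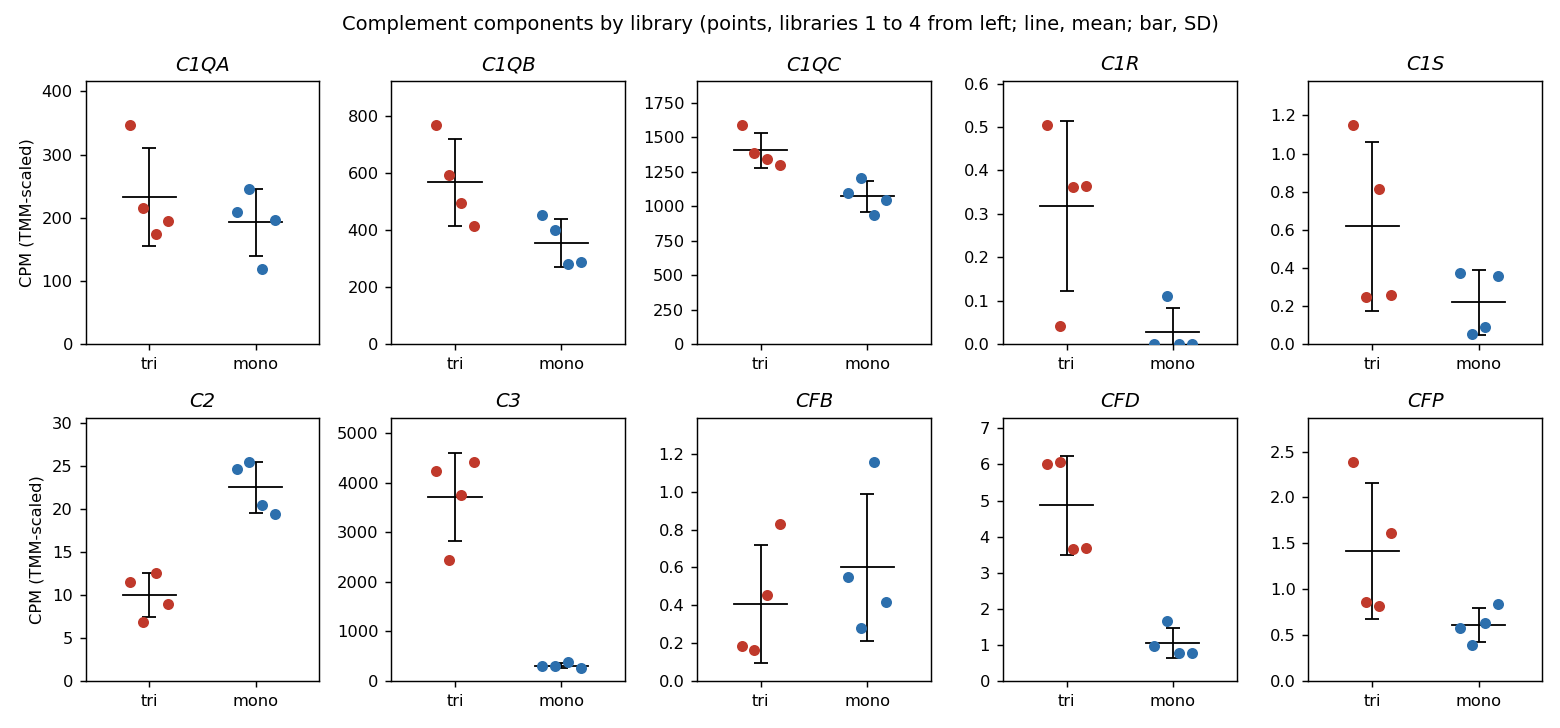
Level of each of the 10 complement components in every library, in CPM on a linear axis of its own per panel, for tri-culture (left in each panel) and mono-culture; points are libraries in the order of batch 1 to 4 from the left, lines are means and bars are SD. C3, CFD and C1QC in tri-culture lie above and C2 below every mono-culture library, while C1QA, CFB and CFP overlap.

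C3, the central protein that both convertases cut, had the largest difference among the 8 members that passed the filter. It had 4233, 2449.7, 3763 and 4429 CPM in tri-culture libraries 1 to 4, against 301, 293, 381 and 258 CPM in mono-culture libraries 1 to 4. The lowest tri-culture library was thus several times above the highest mono-culture library, and the groups did not overlap. The means were 3719 ± 891 CPM in tri-culture and 308 ± 52 CPM in mono-culture (SD, n = 4 each), or 12.1-fold higher in tri-culture (log2 3.59 ± 0.22, 95% interval 3.17 to 4.02, edgeR adjusted p = 1.5e-07). Within batches the ratio was 14.1, 8.37, 9.88 and 17.2 for batches 1 to 4. In the order of log2 differences over the 16249 tested genes, C3 stood at place 395.

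The authors' per-length table was used to compare genes with each other, although its scaling is unspecified. There, C3 had a signal of 1158 ± 269.9 in tri-culture and 95.4 ± 16.2 in mono-culture (SD, n = 4 each). This placed it 70th of all genes by mean signal in tri-culture and 1341st in mono-culture.

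Markers of other cell types differed between the same groups. Of 14 astrocyte markers 13 were tested, 10 were higher in tri-culture and 1 lower, and their summed level was 747 to 869 CPM in tri-culture and 237 to 309.8 CPM in mono-culture, led by S100B and SLC1A3. GFAP, the astrocyte intermediate filament, had 63.2, 151, 254 and 201 CPM in tri-culture libraries 1 to 4, against 0.411, 0.444, 0.149 and 0.18 CPM in mono-culture libraries 1 to 4. S100B had 507, 436, 253 and 242 CPM in tri-culture libraries 1 to 4, against 125, 155, 101 and 118 CPM in mono-culture libraries 1 to 4. Among tri-culture libraries, GFAP was lowest and S100B highest in library 1, the astrocyte sum was lowest in library 4, and C3 was lowest in library 2. Of 9 fibroblast and mesenchymal markers 3 were tested and 1 was higher, with sums of 389.9, 4.61, 383 and 129 CPM in tri-culture libraries 1 to 4 and 24.3, 8.21, 6.86 and 26.4 CPM in mono-culture libraries 1 to 4; the most abundant were COL3A1 and COL1A2. In tri-culture library 2, where COL3A1 had no count and the fibroblast sum was 4.61 CPM, C3 had 2449.7 CPM. The part of astrocyte or fibroblast RNA in the C3 level was not tested.

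Further lists of markers moved in both directions. Dendritic markers (5 of 7 tested higher, 1 lower; CLEC10A and CD1C most abundant) summed to 301 to 451 CPM in tri-culture and 45.7 to 65.1 CPM in mono-culture. Monocyte and neutrophil markers (6 of 7 tested higher, 1 lower; CD14 and LYZ) summed to 242 to 484 CPM in tri-culture and 189 to 217 CPM in mono-culture. Microglia and macrophage markers (3 of 10 tested higher, 1 lower; CSF1R and TYROBP) summed to 4601 to 5742 CPM in tri-culture and 3683 to 4314 CPM in mono-culture. Endothelial markers (1 of 5 tested higher, 1 lower; PECAM1 and EGFL7) summed to 465 to 577 CPM in tri-culture and 315 to 417 CPM in mono-culture. Of 5 neural progenitor markers tested, 3 were higher and 2 lower in tri-culture, with a median log2 difference of 6.76. Those higher were SOX2 (14.1 ± 5.63 CPM in tri-culture and no count in mono-culture), FABP7 (12.7 ± 4.29 CPM in tri-culture and 0.00856 ± 0.0171 CPM in mono-culture) and PAX6 (2.76 ± 0.97 CPM in tri-culture and 0.0149 ± 0.0298 CPM in mono-culture). The most abundant, VIM and NES, were lower and set the sum of this list, which was 582 to 688 CPM in tri-culture and 915 to 1232 CPM in mono-culture. Of 5 neuronal markers tested, 2 were higher and 2 lower. STMN2 (1.92 ± 1.38 CPM in tri-culture and no count in mono-culture) and NEFL (2.92 ± 1.48 CPM in tri-culture and 0.0171 ± 0.0342 CPM in mono-culture) were higher. SYT1 (4 ± 1.37 CPM in tri-culture and 15.7 ± 6.21 CPM in mono-culture) and SLC17A7 (0.418 ± 0.181 CPM in tri-culture and 2.16 ± 0.208 CPM in mono-culture) were lower. The sum of the neuronal list, led by MAP2 and SYT1, was 11.8 to 28.4 CPM in tri-culture and 23.8 to 44.1 CPM in mono-culture. None of 5 pluripotency markers passed the filter; their sums (POU5F1 and NANOG leading) were 0 to 0.181 CPM in tri-culture and 0.111 to 0.36 CPM in mono-culture. FCN1 and ITGAM each stand in 2 of the lists used here. The part of these cell types in the members' differences was not tested.

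**Figure D2:**
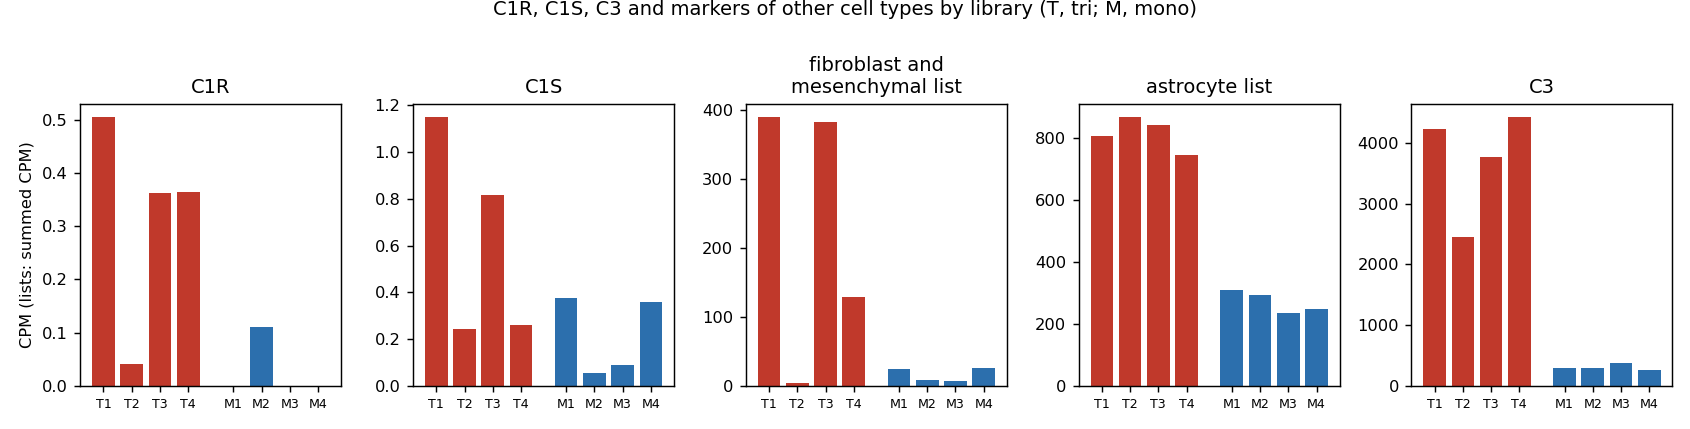
Level of C1R, C1S and C3 and summed level of the fibroblast and astrocyte lists in every library, in CPM on a linear axis of its own per panel, with tri-culture libraries T1 to T4 left of mono-culture libraries M1 to M4. Fibroblast sums spread from 4.61 to 389.9 CPM within tri-culture, while astrocyte sums lie at 747 to 869 CPM there and at 237 to 309.8 CPM in mono-culture.

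C1q, the recognition molecule of the classical pathway, is built of A, B and C chains in equal number, each from its own gene. C1QC had 1591, 1387, 1346 and 1298 CPM in tri-culture libraries 1 to 4, against 1096, 1206, 937 and 1048 CPM in mono-culture libraries 1 to 4, with no overlap. The means were 1406 ± 129 CPM in tri-culture and 1072 ± 111 CPM in mono-culture (SD, n = 4 each), 1.31-fold higher in tri-culture (log2 0.39 ± 0.13, interval 0.13 to 0.65, edgeR adjusted p = 0.0464). C1QB had 768, 591, 494 and 415 CPM in tri-culture libraries 1 to 4, against 452, 400.3, 281 and 289 CPM in mono-culture libraries 1 to 4. Tri-culture library 4 lay below mono-culture library 1, so the groups overlapped, although the ratio within each batch was above 1 (1.7, 1.48, 1.76 and 1.43).

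C1QB was 1.59-fold higher in tri-culture (567 ± 152 CPM in tri-culture against 356 ± 84.1 CPM in mono-culture, log2 0.67 ± 0.20, interval 0.27 to 1.07, edgeR adjusted p = 0.0259, SD over n = 4 each). C1QA had 347, 216, 175 and 195 CPM in tri-culture libraries 1 to 4, against 209.8, 246, 119 and 196 CPM in mono-culture libraries 1 to 4. These groups overlapped almost wholly: the highest value was tri-culture library 1, and the next was mono-culture library 2. The C1QA difference was not called (234 ± 77.7 CPM in tri-culture against 193 ± 53.8 CPM in mono-culture, log2 0.28 ± 0.23, interval -0.18 to 0.74, edgeR adjusted p = 0.435). The calls for both other chains were lost in part of the 16 alternatives, 4 for C1QB and 9 for C1QC, while the direction held in all. Over them the log2 difference ran from 0.49 to 0.81 for C1QB and from 0.32 to 0.49 for C1QC. With the batch block, edgeR gave adjusted p = 0.000506 for C1QB and 0.0283 for C1QC. DESeq2 gave adjusted p = 0.00635 for C1QB and 0.00482 for C1QC. Leaving out tri-culture library 1 or 2, or mono-culture library 3 or 4, ended the C1QB call (adjusted p = 0.0728, 0.0511, 0.0792 and 0.0959). The C1QC call ended when any library but mono-culture library 2 was left out (adjusted p = 0.0529 to 0.139).

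The 3 chains were also compared within each library, which needs no scaling between libraries. The ratio of C1QB to C1QA counts was 2.21, 2.73, 2.82 and 2.13 in tri-culture libraries 1 to 4 and 2.15, 1.62, 2.37 and 1.48 in mono-culture libraries 1 to 4. On the log2 scale it averaged 1.29 ± 0.21 in tri-culture and 0.90 ± 0.32 in mono-culture (SD, n = 4 each), a difference of 0.39 (2-sided exact permutation over libraries, p = 0.143, adjusted over 4 ratios 0.286). The ratio of C1QC to C1QA counts averaged 2.64 ± 0.32 in tri-culture and 2.52 ± 0.31 in mono-culture on the log2 scale (exact permutation p = 0.571, adjusted 0.571). With 4 libraries against 4, the smallest p this test can give is 0.0286.

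C1r and C1s are the proteases carried by C1q. C1R had 11, 1, 8 and 7 counts in tri-culture libraries 1 to 4, against 0, 2, 0 and 0 counts in mono-culture libraries 1 to 4. Tri-culture library 2 lay below mono-culture library 2, so the groups overlapped at this depth. Pooled, 27 counts in tri-culture against 2 in mono-culture gave a depth-scaled ratio of 15 with a counting interval of 3.77 to 130.3, which leaves out the spread between libraries. The exact permutation test over libraries gave p = 0.0571 for C1R (adjusted over C1R and C1S, 0.114), and without the filter edgeR called it (log2 3.52 ± 1.15, adjusted p = 0.0202). For the mono-culture libraries with no count, a floor of 3 counts corresponds to 0.103, 0.0895 and 0.18 CPM in libraries 1, 3 and 4. Of the C1R exon length, 11.4% overlaps C1RL on the same strand. C1RL had 728 counts in tri-culture and 160 in mono-culture, so the low C1R counts are uncertain to that extent.

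C1S had 25, 6, 18 and 5 counts in tri-culture libraries 1 to 4, against 11, 1, 3 and 6 counts in mono-culture libraries 1 to 4. The groups overlapped, and the pooled ratio was 2.86 with a counting interval of 1.7 to 4.99. Neither the exact permutation test (p = 0.171, adjusted 0.171) nor edgeR without the filter (log2 1.46 ± 0.66, adjusted p = 0.161) called C1S. In tri-culture, C1S had 1.15 and 0.816 CPM in libraries 1 and 3, the pair with fibroblast sums of 389.9 and 383 CPM, and 0.245 and 0.26 CPM in libraries 2 and 4, with 4.61 and 129 CPM. In mono-culture, libraries 1 and 4 had the highest C1S, 0.376 and 0.36 CPM, and the highest fibroblast sums, 24.3 and 26.4 CPM. Those sums were mostly COL1A2, with 20.8 CPM in library 1 and 26.3 CPM in library 4. COL1A2 had similar means in both groups, 14.8 ± 10.8 CPM in tri-culture and 14.5 ± 11 CPM in mono-culture. COL3A1 had 2.53, 0, 3.34 and 0 CPM in mono-culture libraries 1 to 4. The part of fibroblast RNA in the C1S counts was not tested. Of the C1S exon length, 3.54% overlaps EMG1 on the same strand, which had 428 counts in tri-culture and 485 in mono-culture, so the low C1S counts are uncertain to that extent.

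C2, the protease component cut by C1s, was the member that fell. It had 11.5, 6.85, 12.5 and 8.99 CPM in tri-culture libraries 1 to 4, against 24.6, 25.5, 20.5 and 19.4 CPM in mono-culture libraries 1 to 4. Every tri-culture library lay below every mono-culture library. The means were 9.96 ± 2.54 CPM in tri-culture and 22.5 ± 2.97 CPM in mono-culture (SD, n = 4 each), 2.26-fold lower in tri-culture (log2 -1.18 ± 0.19, edgeR adjusted p = 0.000414). The ratio within batches was 0.469, 0.269, 0.608 and 0.462. Of the C2 exons, 33.3% overlap another gene on the same strand, almost all through the readthrough transcript AL645922.1, which had no count in any library, and 5.42% overlap ZBTB12 and C2-AS1 on the opposite strand. C2-AS1 had 22 counts in tri-culture and 49 in mono-culture. No source used here says how the authors assigned reads by strand or over overlapping genes, so the values of C2 and of these genes are uncertain to that extent.

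CFB, the counterpart of C2 in the alternative pathway and its neighbour in the genome, had 4, 4, 10 and 16 counts in tri-culture libraries 1 to 4, against 16, 5, 39 and 7 counts in mono-culture libraries 1 to 4. The groups overlapped and the difference was not called (0.408 ± 0.312 CPM in tri-culture against 0.602 ± 0.39 CPM in mono-culture, SD, n = 4 each; log2 -0.64 ± 0.60, interval -1.82 to 0.54, edgeR adjusted p = 0.491). It was -0.09 without mono-culture library 3 and -1.22 without tri-culture library 4, and called in neither. AL645922.1 also covers 45% of the CFB exons. The log2 ratio of CFB to C2 counts averaged -4.89 ± 1.09 in tri-culture and -5.42 ± 0.98 in mono-culture (exact permutation p = 0.457, adjusted over 4 ratios 0.571).

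CFD, the protease of the alternative pathway that cuts factor B, rose. It had 6.02, 6.08, 3.67 and 3.69 CPM in tri-culture libraries 1 to 4, against 0.958, 1.67, 0.776 and 0.78 CPM in mono-culture libraries 1 to 4. The groups did not overlap, and within batches the ratio was 6.28, 3.65, 4.74 and 4.73. CFD was 4.71-fold higher in tri-culture (4.86 ± 1.37 CPM in tri-culture against 1.04 ± 0.422 CPM in mono-culture, SD, n = 4 each; log2 2.23 ± 0.33, interval 1.59 to 2.87, edgeR adjusted p = 0.000205).

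CFP, which codes for properdin, had 2.39, 0.856, 0.816 and 1.61 CPM in tri-culture libraries 1 to 4, against 0.582, 0.389, 0.626 and 0.84 CPM in mono-culture libraries 1 to 4. Tri-culture library 3 lay just below mono-culture library 4, which was the sole overlap. Of the CFP exon length, 6.02% overlaps AL009172.2, which had no count in any library. The difference missed the threshold (1.42 ± 0.743 CPM in tri-culture against 0.609 ± 0.185 CPM in mono-culture, SD, n = 4 each; log2 1.21 ± 0.44, interval 0.35 to 2.07, edgeR adjusted p = 0.0591). It passed with library size alone (adjusted p = 0.0472), with upper-quartile factors (0.0464), with DESeq2 (0.0435) and without tri-culture library 2 (0.0451) or 3 (0.0448). Library size alone moved the median of all genes to 0.12 on the log2 scale.

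The groups did not overlap for 4 members, of which 3 lay above in tri-culture (C1QC, C3 and CFD) and 1 below (C2). Over all tested genes, 15.3% lay above without overlap and 14.1% below.

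**Figure D3:**
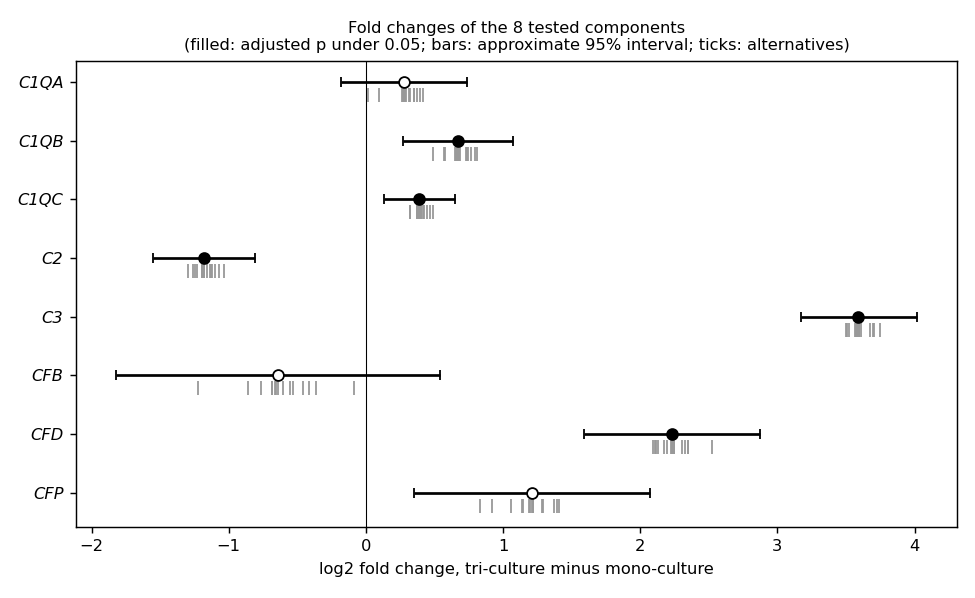
Log2 difference of each tested member, tri-culture over mono-culture, with its approximate 95% interval and the value in each alternative analysis. C3 (3.59) and CFD (2.23) lie furthest above 0 and C2 (-1.18) furthest below, and the CFB interval (-1.82 to 0.54) and the C1QA interval (-0.18 to 0.74) include 0.

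Levels of different genes were compared on the authors' per-length signal. Its scaling is unspecified, and the order of genes and the shares below depend on it. In tri-culture the order was C1QC (1883 ± 171), C3 (1158 ± 269.9), C1QB (666 ± 178), C1QA (285 ± 93.8), CFD (6.43 ± 1.82), C2 (5.01 ± 1.28), CFP (0.698 ± 0.362), CFB (0.272 ± 0.205), C1S (0.256 ± 0.183) and C1R (0.196 ± 0.121). Neighbours C3 (770.3 to 1366) and C1QB (482 to 897) overlapped in this order, as did CFD (4.82 to 8.1) and C2 (3.47 to 6.32). CFP, CFB, C1S and C1R each overlapped the next as well. C1QC lay above C3 in every library. In mono-culture the order was C1QC (1426 ± 138), C1QB (415 ± 99.2), C1QA (234 ± 63.9), C3 (95.4 ± 16.2), C2 (11.2 ± 1.44), CFD (1.37 ± 0.531), CFB (0.401 ± 0.26), CFP (0.299 ± 0.0929), C1S (0.0912 ± 0.0716) and C1R (0.0168 ± 0.0335), all as mean signal ± SD over n = 4 libraries. There, the ranges of CFB and CFP overlapped, as did those of C1S and C1R, and no other neighbours did.

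The makeup of the summed signal differed accordingly. C3 made up 27.5, 21.3, 31 and 35.8% of the members' summed signal in tri-culture libraries 1 to 4, against 3.97, 3.66, 6.38 and 3.87% in mono-culture libraries 1 to 4. The 3 C1q chains together made up 63.9 to 78.4% in tri-culture and 93 to 95.7% in mono-culture, and C1QC alone held 44.5 to 51.7% in tri-culture and 62.1 to 67.7% in mono-culture. The remaining 6 members held 0.287 to 0.338% in tri-culture and 0.561 to 0.669% in mono-culture. The summed signal was 3622 to 4771 in tri-culture and 1849 to 2428 in mono-culture.

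The ratio of C3 counts to the summed C1q counts, chosen after these values were seen, was 1.56, 1.12, 1.87 and 2.32 in tri-culture libraries 1 to 4, against 0.171, 0.158, 0.285 and 0.168 in mono-culture libraries 1 to 4. This was an 8.74-fold difference (log2 means 0.73 ± 0.45 in tri-culture and -2.40 ± 0.39 in mono-culture, SD, n = 4 each), with an exact permutation p of 0.0286, the smallest possible here, and 0.114 after adjustment over 4 ratios.

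**Figure D4:**
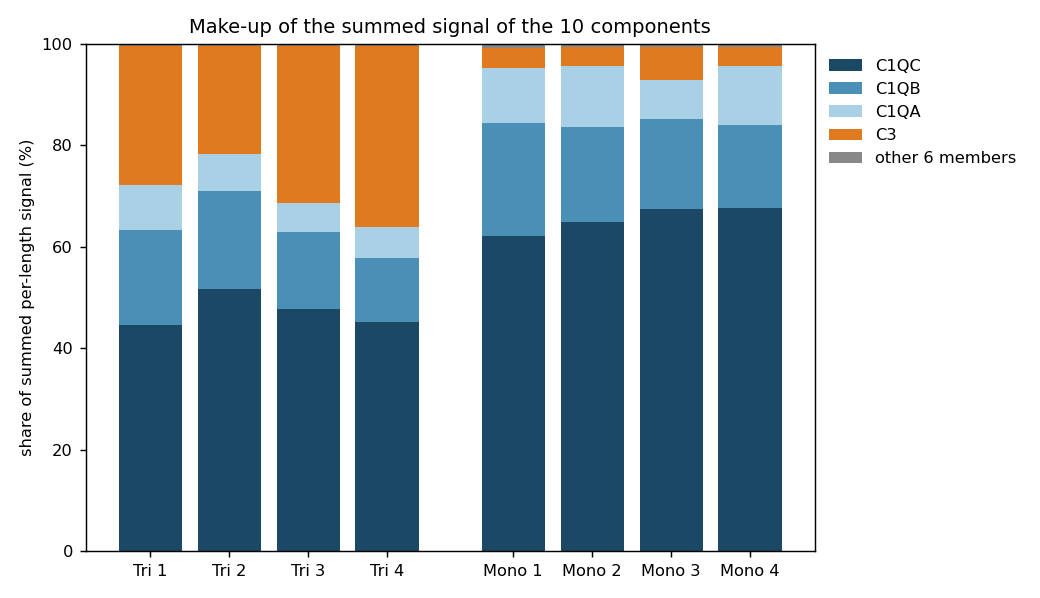
Share of the members' summed per-length signal held by C1QC, C1QB, C1QA, C3 and the other 6 genes in each library, in percent, tri-culture libraries left of mono-culture libraries. C3 holds 21.3 to 35.8% in tri-culture libraries and 3.66 to 6.38% in mono-culture libraries.

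The other genes of the pathway were read in 5 lists. Among 11 early partners of the classical and lectin pathways, 5 were tested, 4 were higher in tri-culture, none was lower and 1 was not called, with a median log2 difference of 1.73. C1RL, a protease related to C1r, rose 4.91-fold (8.41 ± 1.71 CPM in tri-culture against 1.74 ± 0.599 CPM in mono-culture, edgeR adjusted p = 3.94e-05); its exons and those of C1R share 11.4% of the C1R exon length. MASP1, a protease of the lectin pathway, had 0.792 ± 0.247 CPM in tri-culture and no count in mono-culture, or at least 26-fold higher when all 4 mono-culture libraries together are set to 3 counts (edgeR adjusted p = 0.000222). C4A, which with C4B supplies C4, rose 3.33-fold (3.68 ± 1.44 CPM in tri-culture against 1.12 ± 0.455 CPM in mono-culture, edgeR adjusted p = 0.00363), but C4A and C4B are near-identical and reads may be split between them.

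Of 7 terminal components, which build the membrane pore, 2 were tested, 1 was lower and 1 was not called. C9, the pore-forming subunit, had 0.444 ± 0.158 CPM in tri-culture and 1.01 ± 0.167 CPM in mono-culture (log2 -1.19 ± 0.39, edgeR adjusted p = 0.0379), a call lost in 11 of 15 alternatives, among them the fit with the batch number as a block (0.0591) and the omission of any 1 library except tri-culture library 4 (0.0614 to 0.106). C5, which is cut to start the pore, had 12 ± 1.57 CPM in tri-culture and 12.6 ± 3.64 CPM in mono-culture (edgeR adjusted p = 0.858).

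Of 12 receptors, 11 were tested, 2 were higher, 6 lower and 3 not called, with a median log2 difference of -0.61. VSIG4, a macrophage receptor for C3b and iC3b, fell to 328 ± 62.4 CPM in tri-culture, against 789 ± 78.5 CPM in mono-culture (edgeR adjusted p = 4.54e-05). C5AR2, an alternative receptor for C5a, rose 1.65-fold (47 ± 7.68 CPM in tri-culture against 28.6 ± 3.87 CPM in mono-culture, edgeR adjusted p = 0.00209). MEGF10, an engulfment receptor that binds C1q and is also made by astrocytes, rose 30.1-fold (2.59 ± 1.23 CPM in tri-culture against 0.0758 ± 0.0295 CPM in mono-culture, edgeR adjusted p = 1.54e-05). With limma-trend on the per-length table, where a pseudocount of 0.1 limits the change of low genes, the log2 difference of MEGF10 was 3.03, against 4.91. The other receptors that fell were C3AR1, C5AR1, ITGAM, ITGAX and ITGB2, among them the receptor for C3a and chains of the integrins that bind iC3b. Over the alternatives, 4 to 8 receptors were called lower and 2 higher.

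Of 15 soluble regulators, 3 were tested, 2 were higher and 1 was not called. CLU, a chaperone that also blocks pore assembly and is abundant in astrocytes, rose 121-fold (54.1 ± 32.6 CPM in tri-culture against 0.434 ± 0.168 CPM in mono-culture, edgeR adjusted p = 1.24e-06). Its log2 difference of 6.92 became 6.20 with limma-trend. SERPING1, the inhibitor of C1r and C1s, rose 3.02-fold (43 ± 12.1 CPM in tri-culture against 14.2 ± 5.19 CPM in mono-culture, edgeR adjusted p = 0.000291). VTN, vitronectin, had 0.664 ± 0.137 CPM in tri-culture and 0.269 ± 0.15 CPM in mono-culture (edgeR adjusted p = 0.0864; 0.0437 with limma-trend).

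Of 7 membrane regulators, 5 were tested, 1 was higher, 2 lower and 2 not called. CSMD1, an inhibitor of C3 found in the nervous system, rose 25.4-fold (1.68 ± 0.499 CPM in tri-culture against 0.0556 ± 0.0588 CPM in mono-culture, edgeR adjusted p = 6.15e-05). Its log2 difference of 4.67 became 5.59 without mono-culture library 1 and 1.92 with limma-trend. CD55, which speeds the decay of convertases, fell to 11.5 ± 1.96 CPM in tri-culture, against 22.6 ± 1.8 CPM in mono-culture (edgeR adjusted p = 0.000273). CD46, a cofactor for the cutting of C3b, fell to 199 ± 6.56 CPM in tri-culture, against 255 ± 28.3 CPM in mono-culture (edgeR adjusted p = 0.0269). The CD46 call was lost with library size alone, with upper-quartile factors, and without tri-culture library 3 or 4 or mono-culture library 1 or 4 (adjusted p = 0.0607 to 0.0929). Astrocyte marker sums were 747 to 869 CPM in tri-culture and 237 to 309.8 CPM in mono-culture, and their part in MEGF10, CLU and CSMD1 was not tested. All values in the pathway lists are means ± SD over n = 4 libraries a group.

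**Figure D5:**
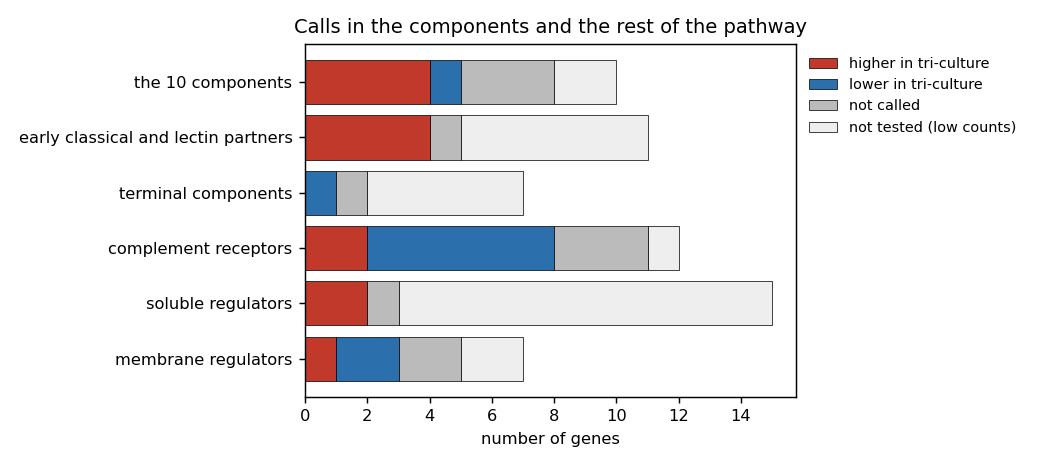
Number of genes higher, lower, not called and not tested in tri-culture against mono-culture, for the 10 components and the 5 other complement lists. Receptors hold 6 lower and 2 higher genes, and the early partners hold 4 higher and no lower gene.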

How the data were processed

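RNA of sorted GFP-labelled microglia, whose labels name both an induced pluripotent origin and the embryonic H1 line, was sequenced in bulk from 4 tri-culture and 4 mono-culture samples. The deposited table of counts holds whole reads for each gene. Per the submitters' processing notes, the authors used GRCh38, HISAT2 2.1.0 and featureCounts 2.12.3; no source used here gives the annotation release or the strand setting. The other deposited table, named as TPM, holds a per-length signal made by the authors whose library totals ran from 865863 to 1138851, so its scaling is unspecified; it was used only to compare genes with each other and, with a pseudocount of 0.1, in limma.

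Genes were filtered with filterByExpr (minimum count 10, minimum total 15) and fitted with edgeR 4.0.16 in R 4.3.3 (TMM factors, robust quasi-likelihood test, group as the sole term). Adjustment was Benjamini-Hochberg over 16249 genes. The standard error is the absolute log2 difference divided by the square root of F, and intervals are approximate. DESeq2 1.42.0, limma 3.58.1, other scalings and filters, a batch block and the omission of each library were alternatives. Ratios were tested with SciPy 1.17.1 (2-sided, exact). The edgeR step was tested on simulated data. The planned ratio of C1R to C1S was not computed, as C1R had no count in 3 mono-culture libraries.

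Library totals were 17037481 to 33363972 counts; intervals and floors on counts cover counting error only. Replicates differed by more than sampling noise (chi-square per degree of freedom 9.21 to 65.1). The labels give both groups the same 4 batch numbers, which pairs the samples; deviations of same-numbered libraries correlated at 0.185, 0.126, 0.264 and 0.0796. The members, the pathway and marker lists and the tests were chosen with earlier results of these data known. Named genes are all members, up to 3 tested genes of smallest adjusted p per pathway list, genes whose exons overlap a member's, and the 2 most abundant of each marker list (1 list is not reported here); other receptors that fell, and GFAP and the microglial, progenitor and neuronal markers beyond the most abundant, were named after their values were seen.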

Additional observations from a re-analysis of the deposited data

Results flagged for a closer look

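Among 28 groups of 4 libraries examined (10 members and 4 ratios in each group), 3 held a library far from the other 3; chance flags about 1 group in 20. C1R had 0.111 CPM in mono-culture library 2 and no count in the other mono-culture libraries. Where all libraries but 1 have no count, any count is flagged, so the C1R flag cannot be set against the chance rate. The ratio of C1QC to C1QA counts was 7.9 in mono-culture library 3, above 5.22, 4.89 and 5.35 in mono-culture libraries 1, 2 and 4; the tri-culture values were 4.58, 6.42, 7.68 and 6.64. The ratio of C3 to summed C1q counts was 0.285 in mono-culture library 3, above 0.171, 0.158 and 0.168 in the other mono-culture libraries, and below all tri-culture values (1.12 to 2.32).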

How the results depend on the processing

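Of 126 alternative values of the members, 108 kept their direction and their side of the threshold, 13 lost their call (4 of C1QB, 9 of C1QC), 5 gained one (CFP) and none turned its direction. The log2 difference ran from 3.50 to 3.75 for C3, 2.10 to 2.52 for CFD and -1.30 to -1.03 for C2, each called in every alternative. C1QC was also not called without the filter (adjusted p = 0.0574) or with limma-trend on the per-length table (0.0628). Between 2 and 4 members were called higher when 1 library was left out, with 2 without tri-culture library 1, mono-culture library 3 or mono-culture library 4; 1 member was called lower throughout. With the replicate block on batch, 4 members were called higher and 1 lower, the same members as without it. With this block, only the C9 call changed among the up to 3 genes of smallest adjusted p in each pathway list. In the receptor list as a whole, 8 genes were called lower with the block, against 6 without it. The paired exact tests of the ratios gave p = 0.125 for C1QB to C1QA, 0.5 for C1QC to C1QA and 0.5 for CFB to C2. The C3 to C1q ratio gave an exact permutation p of 0.125 paired and 0.0571 without any 1 library, the smallest those designs allow. C5, never called, changed sign with library size alone (log2 difference 0.0303), upper-quartile factors (0.0144), without tri-culture library 1 (0.017) and without mono-culture library 4 (0.10), and ran from -0.183 to 0.10 over the omissions; the cause was not tested. The share of higher genes among all calls was 51.7%, against 63% with library size alone and 60.6% with upper-quartile factors. C1R, C1S, CFB and CFP rest on few counts, which limits what can be detected for them.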
